A study of Mus musculus with 16 samples.

Results

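Neurons that had received apoE4 lipoproteins were compared directly with neurons that had received apoE2 lipoproteins, without reference to the control. All count tables labelled apoE4 (4 libraries) and apoE2 (4 libraries) were taken, 8 of the 16 libraries of the series, and libraries with the same replicate number were treated as a pair. The labels do not say what libraries with the same number share. The cells were primary hippocampal neurons of newborn wild type CD1 mice, cultured with AraC, an inhibitor of dividing cells, from 3 days *in vitro* (DIV). The neurons received 10-fold concentrated conditioned medium at 10 and 13 DIV, and RNA was taken at 17 DIV. For the apoE4 libraries the medium came from immortalized astrocytes of mice whose *Apoe* gene was replaced by the human ε4 allele, and for the apoE2 libraries from astrocytes with the human ε2 allele. The apoE3 libraries (4) and control libraries (4, medium of *Apoe*-/- astrocytes) entered the fit only to estimate the spread and are given side by side where levels are shown. In every group the astrocytes had been grown with an added hydroxycholesterol, which the paper used to raise apoE output. Differences in apoE level between batches of medium were balanced with medium of *Apoe*-/- astrocytes. The neurons carried their own mouse *Apoe* in every group. Each allele was supplied by 1 immortalized astrocyte line, so the isoform and the line that made it cannot be told apart.

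ApoE is the main lipid carrier of the brain. Astrocytes secrete it on lipoproteins, and neurons take these up through lipoprotein receptors and hand the cholesterol to the endosome. The human isoforms differ in lipidation and in receptor binding, and the ε4 allele is the main common genetic risk factor for late-onset Alzheimer's disease, while ε2 is associated with a lower risk. ApoE4 and apoE2 are therefore the 2 ends of the allelic series.

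The 8 libraries held 15720376 to 34248172 counts on genes, and levels are given as CPM, the counts of a gene relative to the TMM-scaled total of its library. Neuron markers led by *Map2* and *Snap25* summed to 4501 to 8666 CPM with apoE4 and 5849 to 9166 CPM with apoE2, so the labelled cell type was present in every library. Astrocyte markers were present too, at 1814 to 6383 CPM with apoE4 and 1569 to 3811 CPM with apoE2, higher with apoE4 in 4 of 4 pairs (log2 ratios 0.13, 0.21, 0.30 and 0.85). Fibroblast and mural cell markers summed to 39.6 to 515 CPM with apoE4 and 38.3 to 268 CPM with apoE2, also higher in 4 of 4 pairs (log2 ratios 0.04, 0.05, 0.61 and 1.26). The exact two-sided sign-flip p was 0.125 for each of these lists, the smallest that 4 pairs allow. Pair 4 stood apart, since its apoE4 library was the shallower (18909028 against 34248172 counts) and it had the largest marker difference. The share of *Lars2*, a locus that holds a ribosomal repeat, was 9.82% against 0.69% in pair 4 but 0.359% against 4.67% in pair 2, and it was higher with apoE4 in 2 of 4 pairs. For several gene lists, values without replicate 4 are given beside the result. The gene lists were chosen with earlier results of these data known, so their shares of calls are a description and not a test. In a bulk library, fewer cells of a type and less RNA per cell cannot be told apart.

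**Figure D1:**
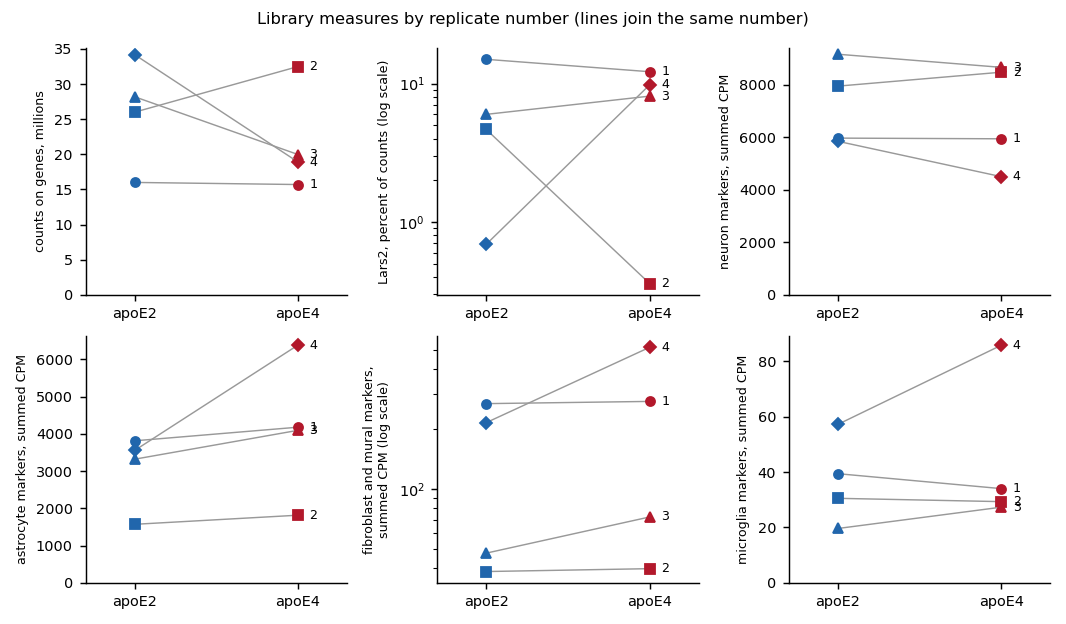
Each panel plots 1 measure for the 4 apoE2 and the 4 apoE4 libraries, with lines joining the same replicate number (circle, square, triangle and diamond for 1 to 4); the *Lars2* and fibroblast panels have log axes. The astrocyte lines rise from apoE2 to apoE4 in every pair and most in pair 4. *Lars2* moves from 0.69 to 9.82% of counts in pair 4 and the other way, from 4.67 to 0.359%, in pair 2.

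The RNA-binding protein *Igf2bp1*, the translation repressor *Eif4ebp2* and the cyclin D kinase *Cdk6* were among the genes called higher with apoE4, and the calcium buffer *Calb1* and the thyrotropin-releasing hormone receptor *Trhr* were among those called lower. Of 17038 tested genes, 757 differed between apoE4 and apoE2 at an adjusted p under 0.05 in edgeR's quasi-likelihood test with the replicate number as a block. Of these, 444 (2.61% of tested genes) were higher and 313 (1.84%) lower with apoE4. The higher genes changed more, with 139 of 444 at 2-fold or above (median log2 fold change 0.79) against 56 of 313 lower genes (median −0.56). The median over all tested genes was −0.0008. The study called a gene at a 2-fold change and an unadjusted p under 0.05, and that was met by 255 higher genes (1.5%) and 103 lower genes (0.605%). Without the replicate block 43 genes were called, 39 higher (0.229%) and 4 lower (0.0235%), and all 43 were among the 757. The 4 apoE4 libraries lay entirely above the 4 apoE2 libraries for 324 tested genes (1.9%) and entirely below for 256 (1.5%). Leaving out apoE4 replicate 3 brought the called genes to 366, apoE4 replicate 4 to 405, apoE2 replicate 2 to 458, apoE4 replicate 1 to 472 and apoE2 replicate 4 to 490, whereas leaving out apoE4 replicate 2 brought them to 940. Without replicate 4 in any group 479 genes were called, of which 391 were among the 757. Of the 757, 205 higher and 93 lower genes were called with each of the 16 libraries left out in turn. The direction was the same in 4 of 4 pairs for 440 of the 444 higher and all 313 lower genes. Agreement of the pairs therefore adds little to a call.

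**Figure D2:**
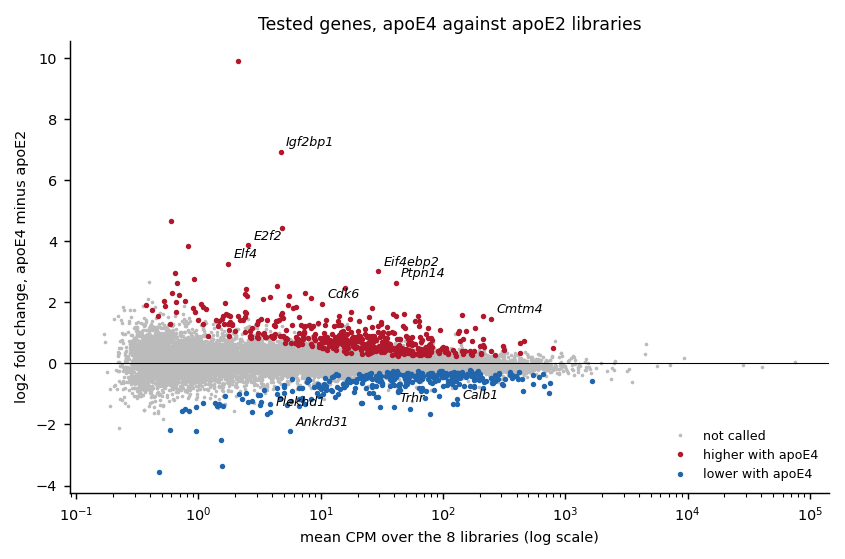
Each point is 1 of 17038 tested genes, with its mean CPM over the 8 libraries on a log axis and its log2 fold change (apoE4 minus apoE2) on the vertical axis; red and blue points were called higher (444) and lower (313) at an edgeR adjusted p under 0.05. *Igf2bp1*, at a log2 fold change of 6.93, lies far above the other labelled genes, and the unlabelled point above it is the pseudogene *Ear-ps8*.

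*Igf2bp1*, which encodes an RNA-binding protein that stabilizes and transports mRNAs and is known mostly from embryonic tissue, had the largest difference among protein-coding genes called. The gene lies at chr11:95957163-96005940, minus strand (mm10). Its reads numbered 208, 200, 113 and 222 in apoE4 replicates 1 to 4 and 0, 2, 2 and 4 in apoE2 replicates 1 to 4. As levels these were 14.1, 5.7, 6.26 and 11.3 CPM with apoE4 and 0, 0.0764, 0.0766 and 0.102 CPM with apoE2 (log2 fold change 6.93, standard error 0.46, edgeR adjusted p = 1.61e-06). The means were 9.34 ± 4.05 CPM (SD, n = 4) and 0.0637 ± 0.0441 CPM (SD, n = 4). The gene was thus at the limit of detection in every apoE2 library and well counted in every apoE4 library, and the size of the fold change rests on 8 apoE2 reads. It was similarly low in the control libraries (0.227, 0.0805, 0 and 0.367 CPM) and slightly above them with apoE3 (0.762, 0.123, 0.19 and 1.12 CPM).

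*Igf2bp1* is a classical target of let-7, a family of miRNAs that pair through the seed (bases 2 to 8) with sites in the 3′UTR. The mature let-7 sequences are shown because they share 1 seed, set in capitals (RefSeq, GRCm38.p6).
let-7a-5p: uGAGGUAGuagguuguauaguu
let-7b-5p: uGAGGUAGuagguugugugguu
let-7g-5p: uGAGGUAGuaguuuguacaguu
miR-98-5p: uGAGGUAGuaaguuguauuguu

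The reverse complement of this seed, CTACCTC, was searched on the sense strand of the 3′UTR of the longest coding transcript of each gene (GENCODE M21, mm10). It occurs 4 times in the 6337 nucleotides of the *Igf2bp1* 3′UTR, all on the minus strand of chromosome 11, and in *Ago2* (3 matches, of which 1 is shown) and *Gxylt1* (1 match), both on the minus strand of chromosome 15, which were also higher with apoE4. Capitals mark the match in these windows of 30 bases.
*Igf2bp1*, chr11:95961767-95961796: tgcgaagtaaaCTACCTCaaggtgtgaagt
*Igf2bp1*, chr11:95959346-95959375: agtgctattaaCTACCTCagccccagaggg
*Igf2bp1*, chr11:95958752-95958781: aaatggatgaaCTACCTCagtcctcacagt
*Igf2bp1*, chr11:95958129-95958158: ttggttttaatCTACCTCttagcaaaacaa
*Ago2*, chr15:73097971-73098000: acaatgtggatCTACCTCagttaaacagtt
*Gxylt1*, chr15:93243989-93244018: agacttcccttCTACCTCaagtgcatttcc

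A match to these letters is a description of the sequence and not evidence of a functional site, and mature miRNAs were not measured in these libraries. The match was held by 29 of 117 higher genes at 2-fold or above (24.8%) and by 10.5% of all 13786 tested genes with a 3′UTR of at least 50 nucleotides. Long 3′UTRs hold more of any 7 letters. In the longest of 4 equal groups of 3′UTRs the shares were 40% (24 of 60) and 21.9%, and the density was 0.122 against 0.0675 matches per kilobase. Among 1284 seed matches of mouse miRNAs that at least 5% of these long 3′UTRs hold, the let-7 match ranked 60th by the ratio of the shares (1.83), behind those of other miRNAs. The let-7 match was examined because *Igf2bp1* leads the list, after values had been seen.

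*Eif4ebp2* encodes the main 4E-binding protein of neurons, which holds eIF4E away from the mRNA cap and so represses cap-dependent translation. It was counted at 85.9, 29.8, 38 and 58 CPM with apoE4 and 6.62, 6.11, 6.24 and 5.29 CPM with apoE2 (log2 fold change 3.02, standard error 0.22, edgeR adjusted p = 4.41e-06). The means were 53 ± 25 CPM (SD, n = 4) with apoE4 and 6.07 ± 0.562 CPM (SD, n = 4) with apoE2. The 4 apoE2 libraries were nearly equal and the lowest apoE4 library was above the highest apoE2 library by a wide margin. Of 27 tested genes of cap-dependent initiation, 2 rose (7.41%, against 2.61% of all tested genes) and 0 fell by edgeR (3 lower at an unadjusted p under 0.05, 1 lower by DESeq2). The other was *Rptor*, the mTORC1 subunit that recruits 4E-binding proteins, which differed by 0.33 on the log2 scale (edgeR adjusted p = 0.0423) and lost its call without 11 of the 16 libraries. The other 25 members did not pass.

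Components of miRNA silencing and mRNA decay rose in 6 of 32 tested members (18.8%, against 2.61% of all tested genes) and fell in 0 by edgeR (1 lower at an unadjusted p under 0.05, 1 lower by DESeq2). *Ago2*, the Argonaute protein with slicer activity, was at 442, 227, 313 and 289 CPM with apoE4 and 94.6, 97.5, 160.3 and 85.6 CPM with apoE2 (log2 fold change 1.55, standard error 0.18, edgeR adjusted p = 0.000246). The groups did not overlap, although apoE2 replicate 3 was above the other apoE2 libraries. *Dcp2*, the catalytic subunit of the decapping complex, was at 127, 73.5, 88 and 123 CPM with apoE4 and 61.8, 58.2, 59 and 60.9 CPM with apoE2 (log2 fold change 0.76, edgeR adjusted p = 0.00138). *Tnrc6b*, a GW182 scaffold that links Argonaute to deadenylases, rose from 88.3, 99.9, 125 and 94.2 CPM with apoE2 to 230.3, 149.5, 163 and 150.1 CPM with apoE4 (log2 fold change 0.75, edgeR adjusted p = 0.0048). *Cnot6*, a deadenylase of the CCR4-NOT complex, differed by 0.79 on the log2 scale (edgeR adjusted p = 0.00693). The remaining called members, *Ago3* (0.41) and *Limd1* (0.88), are outside the naming rule and were named after their values were seen. *Dicer1*, the enzyme that cuts miRNA precursors, was at 87.9, 84.8, 94.7 and 83.4 CPM against 68.3, 72, 79.4 and 73 CPM and did not pass (edgeR adjusted p = 0.067). Without replicate 4 the list had 5 called members, with the summed marker level as a covariate it had 7, and without the replicate block it had 2, *Ago2* and *Dcp2*.

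Of 22 tested genes of the let-7 axis (let-7 precursors, LIN28 and known targets), 2 rose (9.09%) and 1 fell (4.55%), against 2.61% and 1.84% of all tested genes. *Plagl2*, a zinc finger transcription factor, was at 8.88, 4.39, 5.26 and 6.41 CPM with apoE4 and 2.47, 2.25, 2.72 and 1.86 CPM with apoE2 (log2 fold change 1.38, edgeR adjusted p = 0.00196), and the groups did not overlap. *Hras* differed by −0.34 on the log2 scale (edgeR adjusted p = 0.0318) and lost its call without 6 of the 16 libraries. The median of the list was 0.03.

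Genes that control entry into the cell cycle were among the higher genes. E2F factors drive transcription of S phase genes once cyclin D kinases have phosphorylated RB, and mature neurons keep this switch off. In the list of E2F, RB and cyclin-CDK control genes 6 of 28 rose (21.4%, against 2.61% of all tested genes) and 0 fell by edgeR (0 lower at an unadjusted p under 0.05 and by DESeq2). *Cdk6*, the cyclin D-dependent kinase, was at 24.5, 8.38, 11.1 and 21 CPM with apoE4 and 6.41, 1.91, 3.56 and 5.01 CPM with apoE2 (log2 fold change 1.95, standard error 0.16, edgeR adjusted p = 1.03e-05). *E2f2*, an activating E2F, was counted 112, 88, 56 and 115 times with apoE4 and 7, 10, 2 and 13 times with apoE2, or 7.59, 2.51, 3.1 and 5.85 against 0.493, 0.382, 0.0766 and 0.331 CPM (log2 fold change 3.87, edgeR adjusted p = 0.000246). *E2f7*, an atypical E2F that represses the same promoters, was also low, at 1.76, 0.599, 0.72 and 1.58 CPM with apoE4 and 0.0705, 0.153, 0.0383 and 0.229 CPM with apoE2 (log2 fold change 2.96, edgeR adjusted p = 0.00145). Each of these genes was separated between the groups in all libraries. *E2f1* rose less (log2 fold change 0.96, edgeR adjusted p = 0.0131) and lost its call without apoE4 replicate 1 or apoE4 replicate 3. *Ccnd2* (0.57) and *Tfdp2* (0.44), named after their values were seen, lost their calls when single libraries were left out. The list had 3 called members without apoE4 replicate 1 or apoE4 replicate 3, 4 without replicate 4, 3 with the marker covariate and 1, *E2f2*, without the replicate block.

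Among 43 tested genes of DNA replication, 2 rose (4.65%, against 2.61% of all tested genes), with a list median of −0.01. *Cdc6*, which loads the MCM helicase at origins, was at 2.71, 1.14, 1.44 and 1.98 CPM with apoE4 and 0.493, 0.459, 0.689 and 0.356 CPM with apoE2 (log2 fold change 1.78, edgeR adjusted p = 0.00648). *Uhrf1*, which brings DNA methyltransferase to replicated DNA, differed by 0.97 on the log2 scale (edgeR adjusted p = 0.00549). The helicase subunit *Mcm6* was at 15.7, 8.84, 6.64 and 15.8 CPM with apoE4 and 16.8, 13, 12.6 and 21.5 CPM with apoE2 and did not pass (edgeR adjusted p = 0.0724). Of 38 tested genes of mitosis 1 rose (2.63%, near the 2.61%), the kinetochore gene *Cenpf* (13.1, 7.21, 8.75 and 16.9 CPM with apoE4, 5.99, 4.7, 5.32 and 3.99 CPM with apoE2, log2 fold change 1.15, edgeR adjusted p = 0.0102). Without replicate 4 its adjusted p was 0.0756. Outside this list, and named after their values were seen, the mitotic genes *Espl1* (log2 fold change 1.60, edgeR adjusted p = 0.000963), *Foxm1* (1.43, 0.0061), *Aspm* (1.65, 0.00787) and *Kif14* (2.00, 0.0127) were called higher as well. *Top2a*, the topoisomerase of dividing cells, lay at 6.24, 5.79, 4.15 and 10.4 CPM with apoE4 and 8.88, 15.3, 13.1 and 21.4 CPM with apoE2, lower in 4 of 4 pairs but not past the threshold (edgeR adjusted p = 0.0609). In the list of DNA repair and p53 genes 1 of 34 rose (2.94%, near the 2.61%), *Bard1*, the partner of BRCA1 (2.64, 0.969, 1.05 and 2.04 CPM with apoE4, 0.564, 0.344, 0.306 and 0.458 CPM with apoE2, log2 fold change 1.94, edgeR adjusted p = 0.00222).

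The promoters of *E2f2*, *E2f7* and *Cdc6* are shown because each of these genes was higher with apoE4 and each holds a consensus E2F motif, TTTCCCGC or TTTGGCGC on either strand, set in capitals. Each window runs from 250 bases before to 50 bases after a transcription start (RefSeq, GRCm38.p6, plus strand), 5′ to 3′, and capitals that read GCGGGAAA are the reverse complement of the first motif.
*E2f2*, chr4:136172024-136172323: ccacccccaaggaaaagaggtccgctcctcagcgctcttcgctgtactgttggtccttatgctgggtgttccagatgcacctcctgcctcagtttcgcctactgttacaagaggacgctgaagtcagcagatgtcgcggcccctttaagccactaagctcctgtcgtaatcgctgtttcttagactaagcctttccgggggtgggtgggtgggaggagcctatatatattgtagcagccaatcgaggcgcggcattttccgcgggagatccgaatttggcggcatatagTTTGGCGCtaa
*E2f7*, chr10:110745189-110745488: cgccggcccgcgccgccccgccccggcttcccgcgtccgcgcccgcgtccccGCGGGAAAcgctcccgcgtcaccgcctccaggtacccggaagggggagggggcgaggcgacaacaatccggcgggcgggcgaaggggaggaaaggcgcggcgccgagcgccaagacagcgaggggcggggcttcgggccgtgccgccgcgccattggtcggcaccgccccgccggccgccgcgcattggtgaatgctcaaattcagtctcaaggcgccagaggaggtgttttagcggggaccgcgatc
*Cdc6*, chr11:98907901-98908200: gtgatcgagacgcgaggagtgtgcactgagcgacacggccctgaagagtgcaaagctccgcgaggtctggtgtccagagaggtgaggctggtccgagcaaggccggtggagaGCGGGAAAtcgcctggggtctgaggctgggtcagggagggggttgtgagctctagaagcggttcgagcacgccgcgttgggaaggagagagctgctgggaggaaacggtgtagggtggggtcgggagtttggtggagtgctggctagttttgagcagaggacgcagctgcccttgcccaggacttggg

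A motif of these letters was in 1.56% of all 32851 promoters of this length, and 1.8% of 27025 genes had it in at least 1 promoter. Of the 444 called higher genes 311 had a promoter in the table, as had 11600 of the 17038 tested genes, and 3.21% of these tested genes had the motif. Since under 80% of each set had a promoter, shares of the called genes were not compared with it. Among tested list members with a promoter, the motif was in 6 of 21 E2F, RB and cyclin-CDK control genes (28.6%). It was in 11 of 34 DNA replication genes (32.4%). Most tested members of these lists were not called (22 of 28 and 41 of 43), and promoters of their other called members are not shown. *E2f2* has a second start in the table whose promoter does not hold these letters.

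Replication-dependent histone genes rose in 9 of 52 tested members (17.3%, against 2.61% of all tested genes) and fell in 0 by edgeR (0 lower at an unadjusted p under 0.05 and by DESeq2), and 47 of the 52 had a positive log2 fold change (median 0.32). Their mRNAs are made in S phase and mostly end without a poly(A) tail, and libraries of rRNA-depleted total RNA keep them. *Hist1h4m* was at 1.49, 0.542, 1.22 and 2.85 CPM with apoE4 and 0.282, 0.0764, 0.0383 and 0.0763 CPM with apoE2 (log2 fold change 3.83, edgeR adjusted p = 0.000856). *Hist1h3b* was at 3.25, 0.827, 1.33 and 4.07 against 1.06, 0.229, 0.766 and 1.12 CPM (log2 fold change 1.57) and *Hist1h2bh* at 1.69, 0.827, 1.44 and 1.68 against 0.493, 0.382, 0.306 and 0.407 CPM (1.82), while the more abundant *Hist1h4j* changed less (8.13, 6.61, 5.2 and 12.4 against 4.79, 4.66, 2.95 and 8.09 CPM, 0.67). The called histone genes ranged from levels near 1 CPM to *Hist1h1e* at 63.4, 63.1, 61.5 and 69.3 CPM with apoE4, which was named after its values were seen. These genes have near-identical copies, and the reads given to a single copy are uncertain. Without replicate 4 the list had 8 called members, with the marker covariate 6, and without the replicate block 1.

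Among transcription factors, *Elk4* and *Elf4* rose out of 18 tested ETS family members (11.1%, against 2.61% of all tested genes). *Elk4*, which binds with serum response factor, was at 127, 57.6, 81.9 and 110.2 CPM with apoE4 and 29.2, 26.6, 41.8 and 27.6 CPM with apoE2 (log2 fold change 1.55, standard error 0.15, edgeR adjusted p = 7.06e-05). The gene (chr1:132007607-132032612, plus strand) overlaps *Mfsd4a*, which runs on the minus strand (chr1:132022806-132068062) and showed the same pattern (81.5, 35.9, 49.8 and 70.7 CPM with apoE4, 17.8, 15.7, 27 and 15.1 CPM with apoE2, log2 fold change 1.63, edgeR adjusted p = 0.000189). Whether the counting used the strand is not given in the sources used here, so reads in the shared stretch cannot be assigned to 1 of them. *Elf4* was nearly absent with apoE2 (0.352, 0.0764, 0.383 and 0.509 CPM) and low with apoE4 (3.12, 1.43, 2.44 and 5.65 CPM, log2 fold change 3.26, edgeR adjusted p = 0.000246).

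*Foxn3*, a forkhead repressor, was at 42, 21.5, 25.2 and 38.8 CPM with apoE4 and 17.5, 12.9, 11.6 and 15.3 CPM with apoE2 (log2 fold change 1.12, standard error 0.11, edgeR adjusted p = 6.96e-05). *Aff1*, a scaffold of the super elongation complex, was at 68.3, 23.4, 35.4 and 54.7 CPM with apoE4 and 21.1, 8.83, 18.1 and 20.9 CPM with apoE2 (log2 fold change 1.36, standard error 0.14, edgeR adjusted p = 7.51e-05). In both genes each apoE4 library lay above all apoE2 libraries, and pair 1 had the highest apoE4 value. *Tet3*, a 5-methylcytosine dioxygenase, *Zbtb39*, *Zbtb34* and *Pou2f1* were called with and without the block, at log2 fold changes of 1.08, 1.27, 1.42 and 1.05. Of 341 tested *Zfp* genes 11 rose (3.23%, against 2.61% of all tested genes) and 2 fell (0.587%, against 1.84%). *Zfp280b* (42.8, 25.6, 35.1 and 43.5 CPM with apoE4, 12.1, 13.6, 15.1 and 10.6 CPM with apoE2, log2 fold change 1.53, edgeR adjusted p = 0.000246) and *Zfp516* (1.23) had the lowest adjusted p-values among them. *Mafg*, the small MAF partner of NRF2, rose from 84.3, 93.7, 91 and 86.8 CPM with apoE2 to 229, 138, 154 and 194 CPM with apoE4 (log2 fold change 0.99, edgeR adjusted p = 0.000246). In its list of 27 tested genes 3 rose (11.1%, against 2.61%). The others were *Bach2*, a repressor that shares the MAF partners (0.86), and *Slc7a11*, the cystine/glutamate exchanger and an NRF2 target (0.76, edgeR adjusted p = 0.0423), which lost its call without 9 of the 16 libraries.

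**Figure D3:**
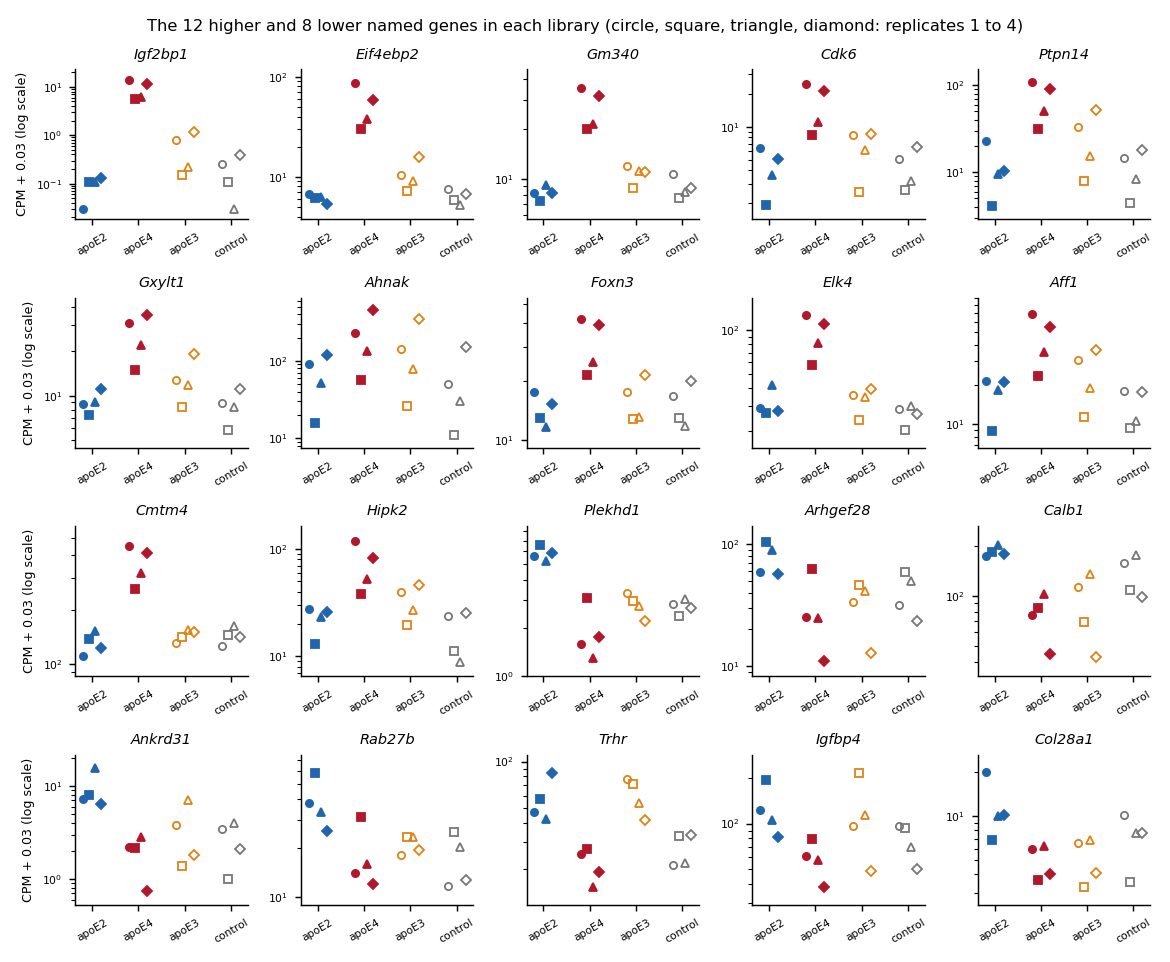
CPM, with 0.03 added, on a log axis for the 12 higher and 8 lower named genes in each apoE2 (blue), apoE4 (red), apoE3 (orange, open) and control (grey, open) library, with circle, square, triangle and diamond for replicates 1 to 4. The apoE4 points of the higher genes stand above those of every other group at each replicate number, and for *Plekhd1* the apoE2 points stand above the rest.

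The Hippo kinase cascade holds the co-activator YAP out of the nucleus, where it would act with TEAD factors. In this list 10 of 25 tested members rose (40%) and 1 fell (4%), against 2.61% and 1.84% of all tested genes. *Frmd6*, an upstream activator, was at 33.6, 26.6, 36.6 and 45.1 CPM with apoE4 and 18.5, 17.8, 20.7 and 18.8 CPM with apoE2 (log2 fold change 0.89, edgeR adjusted p = 0.000246), with no overlap between the groups. The angiomotin *Amotl1*, which binds YAP, was at 115, 40.9, 67.8 and 135 against 62.1, 16.9, 28.5 and 45.7 CPM (log2 fold change 1.24, edgeR adjusted p = 0.000343). *Mob1a*, the co-activator of the LATS kinases (0.86), and *Ajuba*, which inhibits them (1.55), rose as well. Members named after their values were seen were the factors *Tead1* (1.01) and *Tead4* (1.40), the YAP target *Ankrd1* (2.05), and *Amot* (0.68), *Amotl2* (0.76) and *Vgll4* (0.60). The kinase *Lats2* fell (79.6, 96.7, 104 and 68.7 CPM with apoE4, 137, 109, 174 and 103 CPM with apoE2, log2 fold change −0.57, edgeR adjusted p = 0.00841). *Ptpn14*, a phosphatase that binds YAP and is not in the list, was among the most changed genes, at 108, 31.1, 51 and 89.96 CPM with apoE4 and 22.9, 4.05, 9.54 and 10.4 CPM with apoE2 (log2 fold change 2.65, standard error 0.22, edgeR adjusted p = 1.34e-05).

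*Amotl1*, *Mob1a*, *Ajuba*, *Amotl2* and *Vgll4* were highest in replicates 1 and 4 of both groups, as was the sum of the fibroblast and mural cell markers. Without replicate 4 the Hippo list had 6 members called higher and 1 lower, with the summed astrocyte and fibroblast marker level as a covariate 5 and 3, and without apoE2 replicate 4 it had 6 higher and 1 lower. *Frmd6* was the member called without the replicate block. Among the markers themselves, *Col1a1* (49.7, 5.53, 13.3 and 48.8 CPM with apoE4, 29.7, 2.29, 4.33 and 12.2 CPM with apoE2, log2 fold change 1.38, edgeR adjusted p = 0.00902) and *Col1a2* (0.86) rose out of 14 tested fibroblast and mural cell markers (14.3%, against 2.61% of all tested genes). *Col1a2* lost its call without replicate 4 (edgeR adjusted p = 0.0595) and without any 1 of apoE4 replicates 3 and 4 and apoE2 replicate 3, while *Col1a1* kept its call in each of these fits. With the marker covariate, which is computed in part from these genes, 0 were called higher and 1 lower, and without the replicate block 0 were called. The astrocyte glutamate transporter *Slc1a2* rose out of 14 tested astrocyte markers (7.14%, against 2.61%). It was at 932, 862, 1346 and 597 CPM with apoE4 and 539, 567, 1007 and 506 CPM with apoE2 (log2 fold change 0.51, edgeR adjusted p = 0.0294) and lost its call without the block and without any 1 of apoE4 replicates 1 and 3 and apoE2 replicates 1 and 2. By edgeR, 0 calls were made among 14 microglia, 17 oligodendrocyte lineage and 6 endothelial markers tested, or among 15 neuron markers. At an unadjusted p under 0.05 these 4 lists had 0, 2, 0 and 4 members, and DESeq2 called 0, 1, 0 and 2. *Gfap* was at 1281, 300.2, 1229.5 and 2492 CPM with apoE4 and 1206, 329, 1070.0 and 1381 CPM with apoE2 (log2 fold change 0.23, edgeR adjusted p = 0.551). The part of the non-neuronal cells in these results was not tested beyond these values.

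*Ahnak*, a giant scaffold beneath the plasma membrane, followed the same order of replicates, with 229, 56.5, 134 and 452 CPM with apoE4 and 92.2, 15.8, 51.9 and 119 CPM with apoE2 (log2 fold change 1.60, standard error 0.16, edgeR adjusted p = 6.96e-05). Each apoE4 library was above its apoE2 partner, although the groups overlapped. Of the 12 higher named genes, *Cdk6*, *Ptpn14*, *Foxn3*, *Aff1* and *Hipk2* were also highest in replicates 1 and 4 of both groups. The others of the 12 were not. Collagens, laminins and integrins rose in 7 (8.64%) and fell in 4 (4.94%) of 81 tested members, against 2.61% and 1.84% of all tested genes. The integrin *Itga6* rose (0.67), while the collagen *Col28a1* (5.96, 3.65, 6.2 and 4.02 CPM with apoE4, 20.01, 6.88, 9.96 and 10.1 CPM with apoE2, log2 fold change −1.17, standard error 0.18, edgeR adjusted p = 0.00176) and the laminin chain *Lama2* (11.7, 16.4, 8.91 and 9.01 against 18.5, 21.7, 19.5 and 17.8 CPM, log2 fold change −0.77) fell without overlap between the groups. *Lama2* was not called without replicate 4 (edgeR adjusted p = 0.0525). Without replicate 4 the list had 3 members higher and 2 lower, and with the marker covariate 1 and 6. The 11 calls became 5 without apoE4 replicate 3 or apoE4 replicate 4, 6 without apoE2 replicate 2 and 7 without apoE2 replicate 3.

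Further genes were well separated. *Cmtm4*, a MARVEL-domain membrane protein, was the most abundant of the 12 higher genes, at 451, 259, 321 and 415 CPM with apoE4 and 109.9, 137, 153 and 122 CPM with apoE2 (log2 fold change 1.47, standard error 0.15, edgeR adjusted p = 8.09e-05). *Gxylt1*, which adds xylose to the O-glucose of Notch receptors, was at 31.1, 15, 22 and 35 CPM with apoE4 and 8.74, 7.41, 8.96 and 11 CPM with apoE2 (log2 fold change 1.45, standard error 0.12, edgeR adjusted p = 1.34e-05). The kinase *Hipk2*, which phosphorylates p53, was at 119, 38, 52.5 and 81.7 CPM with apoE4 and 27.8, 12.9, 23.5 and 26 CPM with apoE2 (log2 fold change 1.61, standard error 0.17, edgeR adjusted p = 0.000126). *Gm340*, a predicted protein-coding gene (chr19:41582370-41586536, plus strand), was at 35.4, 20.04, 21.5 and 31.5 CPM with apoE4 and 8.1, 7.34, 9.15 and 8.16 CPM with apoE2 (log2 fold change 1.69, standard error 0.13, edgeR adjusted p = 5.62e-06). None of the 4 overlapped between the groups, and none lost its call when a single library was left out. The corticotropin-releasing hormone receptor *Crhr1* was called with and without the block (1.16). *Mir7053*, a miRNA gene in the locus of *Pold1*, rested on 20, 17, 26 and 26 reads with apoE4 and 1, 1, 2 and 0 with apoE2, and its mature form was not measured. Features of unknown function called with and without the block were *AI606181* (2.31), *Gm10524* (2.14), *Gm9855* (1.21) and *Gm22* (2.43), and the snoRNA gene *Snora2b* in the locus of *Kansl2* (2.63) was among them.

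Among the lower genes, *Calb1*, the calcium buffer calbindin of dentate granule cells and some interneurons, was at 76.2, 84.1, 103 and 44.6 CPM with apoE4 and 173, 184, 202 and 178 CPM with apoE2 (log2 fold change −1.34, standard error 0.19, edgeR adjusted p = 0.000974). *Calb2* (calretinin) fell too (142, 221, 40.3 and 92.4 against 193, 299, 54.4 and 279 CPM, log2 fold change −0.74, edgeR adjusted p = 0.0195), and lost its call without apoE4 replicate 3 or apoE4 replicate 4. They were the 2 called members among 31 tested genes of GABAergic neurons and GABA-A receptors (6.45% lower, against 1.84% of all tested genes). Of the 31, 19 had a positive log2 fold change (list median 0.07). At an unadjusted p under 0.05, 7 were higher and 4 lower, and DESeq2 called 2 higher and 2 lower. *Gad1*, the main GABA-synthesizing enzyme, was at 278, 262, 181 and 264 CPM with apoE4 and 272, 207, 127 and 149 CPM with apoE2 (edgeR adjusted p = 0.0706), and the granule cell factor *Prox1* was at 125, 32.7, 68.6 and 90.4 against 76.1, 39.7, 66.5 and 54.1 CPM and was not called (edgeR adjusted p = 0.32).

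*Trhr*, the receptor of thyrotropin-releasing hormone, was at 24.9, 27, 15.2 and 19.1 CPM with apoE4 and 47, 56.9, 42.3 and 84.7 CPM with apoE2 (log2 fold change −1.43, standard error 0.21, edgeR adjusted p = 0.00143), and it was 1 of the 2 lower genes at 2-fold or above that were called without the block as well. The other, *Plekhd1*, was low, at 1.56, 3.05, 1.27 and 1.73 CPM with apoE4 and 5.57, 6.57, 5.21 and 5.82 CPM with apoE2 (log2 fold change −1.59, standard error 0.22, edgeR adjusted p = 0.000733). *Arhgef28*, an exchange factor for RhoA, was at 25.2, 62.5, 24.9 and 11.1 CPM with apoE4 and 58.8, 104, 89.5 and 56.4 CPM with apoE2 (log2 fold change −1.50, standard error 0.21, edgeR adjusted p = 0.000946). Its groups overlapped, with apoE4 replicate 2 above 2 of the apoE2 libraries. *Rab27b*, a small GTPase of secretory vesicles, was at 14, 31.3, 16.1 and 12.1 CPM with apoE4 and 37.9, 57.8, 33.5 and 25.7 CPM with apoE2 (log2 fold change −1.10, edgeR adjusted p = 0.00134). *Igfbp4*, which binds insulin-like growth factors, was at 60.9, 79.2, 57.6 and 38.4 CPM with apoE4 and 123, 192, 105 and 81.1 CPM with apoE2 (log2 fold change −1.06, edgeR adjusted p = 0.00145). *Ankrd31*, known from meiotic recombination, had the largest fall of the 8, from 7.26, 8.06, 15.5 and 6.43 CPM with apoE2 to 2.17, 2.14, 2.77 and 0.712 CPM with apoE4 (log2 fold change −2.23, standard error 0.32, edgeR adjusted p = 0.00102). The 8 lower genes kept their calls when any 1 library was left out. Of the 12 higher and 8 lower genes, 8 were called without the replicate block (*Igf2bp1*, *Eif4ebp2*, *Gm340*, *Gxylt1*, *Elk4*, *Cmtm4*, *Plekhd1* and *Trhr*).

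The apoE3 and control libraries show where the 2 isoforms lay among the 4 groups. At each replicate number the apoE4 library was the highest of the 4 groups for all 12 higher named genes, and the apoE2 library was the lowest for 1. *Eif4ebp2*, for example, was at 10.4, 7.22, 9.07 and 15.9 CPM with apoE3 and 7.55, 5.84, 5.17 and 6.76 CPM in the control, and *Cmtm4* at 129.7, 141, 155 and 151 CPM with apoE3 and 125, 144, 163 and 140.1 CPM in the control. For the 8 lower named genes the apoE2 library was the highest in 4 of 4 numbers for 6 and the apoE4 library the lowest for 1. *Plekhd1* was at 3.28, 2.91, 2.7 and 2.17 CPM with apoE3 and 2.77, 2.33, 3 and 2.62 CPM in the control, and *Ankrd31* at 3.81, 1.35, 7.05 and 1.77 and 3.46, 0.966, 3.98 and 2.09 CPM. *Trhr* was at 76.4, 71, 54 and 41.7 CPM with apoE3 and 21.2, 32.7, 21.6 and 33.1 CPM in the control. Over all calls, apoE4 was the highest group in 4 of 4 numbers for 231 of 444 higher genes and apoE2 the lowest for 77. For the 313 lower genes apoE2 was the highest for 165 and apoE4 the lowest for 41. Over all 17038 tested genes apoE4 was the highest for 412 and the lowest for 165, and apoE2 the highest for 286 and the lowest for 164. The called genes were chosen for a difference between apoE4 and apoE2, and these orders are a description with no test.

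Transcripts of synaptic proteins were mostly not called. The study stained cells for PSD95, NR1, synaptophysin, MAP2 and GFAP, and edgeR called 0 of the 5 corresponding transcripts, as did DESeq2, with 0 at an unadjusted p under 0.05. In the study's staining of dendrites, PSD95 and NR1 were lower and synaptophysin was higher with apoE4 than with apoE2. Stained density in dendrites and RNA of whole cultures are unlike measures, so these transcripts do not bear on those protein differences. *Dlg4* (PSD95) was at 331, 398, 435 and 188 CPM with apoE4 and 276, 365, 414 and 241 CPM with apoE2 (log2 fold change 0.03, standard error 0.10, edgeR adjusted p = 0.918). *Grin1* (NR1) was at 146, 172, 250.5 and 70.1 CPM with apoE4 and 133, 157, 201 and 113 CPM with apoE2 (log2 fold change −0.01, standard error 0.14, edgeR adjusted p = 0.979). *Syp* (synaptophysin) had a log2 fold change of −0.06 with a standard error of 0.12, and the dendritic *Map2* one of −0.26 with a standard error of 0.12 (edgeR adjusted p = 0.293). Each of these 4 genes was lowest in apoE4 replicate 4 among the apoE4 libraries, the library with the highest astrocyte marker level.

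Of 30 tested glutamate receptor and auxiliary subunit genes 3 rose (10%) and 2 fell (6.67%), against 2.61% and 1.84% of all tested genes. The cornichon *Cnih3*, an AMPA receptor auxiliary subunit, fell from 92, 127, 64.5 and 96.2 CPM with apoE2 to 40.7, 83.4, 40.1 and 21.2 CPM with apoE4 (log2 fold change −1.14, edgeR adjusted p = 0.00602), and *Cnih2* fell less (−0.50, edgeR adjusted p = 0.0327). *Gsg1l*, another AMPA receptor auxiliary subunit, rose from 2.18, 4.47, 2.68 and 1.12 CPM to 5.63, 5.62, 6.59 and 5.14 CPM without overlap (log2 fold change 1.24, edgeR adjusted p = 0.00879). The kainate receptor gene *Grik3* (0.98) and *Cacng4* (0.76, named after its values were seen) rose as well, each losing its call when single libraries were left out. Without replicate 4 *Cnih3* was the called member, and *Gsg1l*, *Grik3*, *Cacng4* and *Cnih2* were not called (edgeR adjusted p = 0.0753, 0.101, 0.182 and 0.08). The list had 2 called members without any 1 of apoE4 replicates 1, 3 and 4 and apoE2 replicate 4, and 3 without apoE2 replicate 1. Pore-forming AMPA and NMDA receptor subunits were not among the calls. Of 32 tested postsynaptic and adhesion genes 1 fell (3.12%, against 1.84%), *Nrgn* (neurogranin, −0.52, edgeR adjusted p = 0.0397), and of 33 vesicle genes 1 rose (3.03%, near the 2.61%), *Syn3* (0.83, edgeR adjusted p = 0.0494). *Nrgn* lost its call without any 1 of 9 libraries and *Syn3* without any 1 of 13. Of 30 cytoskeleton and growth genes 0 were called by edgeR, while 11 had an unadjusted p under 0.05, 10 of them lower, and DESeq2 called 3 lower.

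Potassium channel subunits rose in 3 (4.05%) and fell in 1 (1.35%) of 74 tested members, near the 2.61% and 1.84% of all tested genes. *Kcnip3*, a calcium sensor of Kv4 channels, was at 69.4, 70.4, 159.6 and 75.7 CPM with apoE4 and 42.3, 32.7, 102 and 27.2 CPM with apoE2 (log2 fold change 0.98, standard error 0.12, edgeR adjusted p = 0.000246), with the apoE4 library above its apoE2 partner in each pair. The sodium-activated channel *Kcnt1* fell (11.1, 20.9, 9.63 and 7.23 against 17.5, 33.4, 13 and 14.9 CPM, log2 fold change −0.71), while the small-conductance channels *Kcnn1* (0.44) and *Kcnn3* (0.55) rose. The higher calls of this list numbered 1 without replicate 4, 1 without apoE2 replicate 4 and 5 without apoE2 replicate 3, and the call that held without replicate 4 was *Kcnip3*. With the marker covariate 7 were higher and 0 lower, DESeq2 called 6 higher and 1 lower, and without the replicate block 0 were called. Of 28 tested immediate early genes 2 rose (7.14%, against 2.61% of all tested genes). They were *Inhba*, an activin subunit induced by synaptic activity (2.71, 4.99, 12.6 and 1.98 CPM with apoE4, 1.2, 1.87, 1.57 and 1.88 CPM with apoE2, log2 fold change 1.42, edgeR adjusted p = 0.0261), and the phosphatase *Dusp5* (0.51, edgeR adjusted p = 0.0248). *Arc* was at 41.1, 43.1, 126 and 16.5 CPM with apoE4 and 34.8, 20.4, 64.8 and 16.3 CPM with apoE2 and did not pass (edgeR adjusted p = 0.058). By edgeR the list had 0 called members without apoE2 replicate 2 and 0 without apoE2 replicate 3, while 10 members had an unadjusted p under 0.05, all higher, and DESeq2 called 4.

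**Figure D4:**
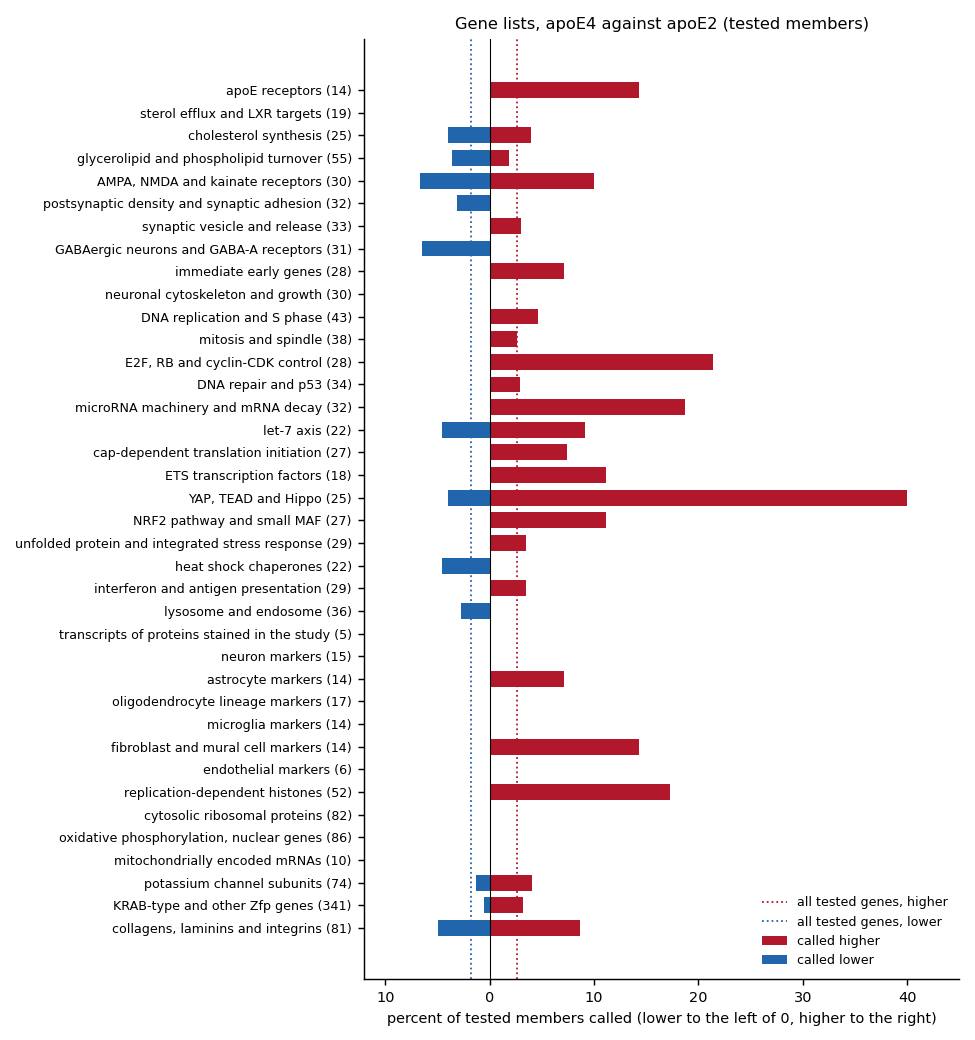
Percent of the tested members of each list (number tested in parentheses) called higher (red, to the right) or lower (blue, to the left) with apoE4 at an edgeR adjusted p under 0.05; dotted lines mark the shares of all tested genes, 2.61% and 1.84%. The Hippo list reaches 40% higher, followed by the E2F list at 21.4%, the miRNA and mRNA decay list at 18.8% and the histones at 17.3%. The lists were chosen with earlier results of these data known, so the shares are a description with no test.

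Of 14 tested apoE receptor and adaptor genes 2 rose (14.3%, against 2.61% of all tested genes). *Lrp1*, the large endocytic receptor, was at 711, 398, 545 and 458 CPM with apoE4 and 373, 312, 536 and 389 CPM with apoE2 (log2 fold change 0.37, standard error 0.14, edgeR adjusted p = 0.151). The reelin receptors *Lrp8* (−0.17, standard error 0.08) and *Vldlr* (−0.06, standard error 0.10) were not called either. *Lrp6*, a co-receptor for Wnt and 1 of the called members, differed by 0.30 on the log2 scale (edgeR adjusted p = 0.0458) and lost its call without 11 of the 16 libraries. Mouse *Apoe* was at 1404, 459, 1014 and 2265 CPM with apoE4 and 1774, 408, 835 and 1258 CPM with apoE2 (log2 fold change 0.21, standard error 0.18, edgeR adjusted p = 0.577).

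Among 25 tested genes of cholesterol synthesis and its control, 1 rose (4%) and 1 fell (4%), against 2.61% and 1.84% of all tested genes. *Stard4*, a sterol carrier, was at 45.5, 81.1, 49.5 and 45.8 CPM with apoE4 and 5.28, 58.2, 36 and 10.7 CPM with apoE2 (log2 fold change 1.56, edgeR adjusted p = 0.0274). Its difference lay in pairs 1 and 4, and the call was lost without any 1 of their 4 libraries. Of 19 tested genes of sterol efflux and LXR targets edgeR and DESeq2 called 0, 2 were lower at an unadjusted p under 0.05, and 15 of them had a positive log2 fold change (range −0.24 to 0.38). In the glycerolipid and phospholipid list 1 of 55 rose (1.82%, against 2.61%), the diacylglycerol-activated kinase *Prkd3* (0.89, edgeR adjusted p = 0.00372), and 2 fell (3.64%, against 1.84%), *Plcb1* (−0.59) and *Gpcpd1* (−0.28).

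Interferon response and antigen presentation genes lay mostly above 0, and few passed the test. 28 of 29 tested members had a positive log2 fold change (median 0.50, against −0.0008 over all tested genes), and 1 rose (3.45%, near the 2.61% of all tested genes), the peptide loading factor *Tapbp* (0.36, edgeR adjusted p = 0.0329). *Isg15* was at 12.4, 0.542, 4.93 and 9.11 CPM with apoE4 and 6.62, 0.459, 1.76 and 2.47 CPM with apoE2 (edgeR adjusted p = 0.0797), and *Rsad2* at 4.81, 0.684, 2.71 and 8.8 against 3.81, 0.306, 1.03 and 1.91 CPM (edgeR adjusted p = 0.0671). At an unadjusted p under 0.05, 15 members were higher, and DESeq2 called 5. The edgeR calls in the list numbered 0 without any 1 of apoE4 replicates 1 and 3 and apoE2 replicates 2, 3 and 4, and 13 without apoE2 replicate 1. They numbered 0 without replicate 4, with the marker covariate and without the replicate block. *Tapbp*, *Isg15* and *Rsad2* were highest in replicates 1 and 4 of both groups, as were the astrocyte and fibroblast marker sums. In the unfolded protein and integrated stress response 1 of 29 rose (3.45%, near the 2.61%), *Edem1*, which sends misfolded glycoproteins to degradation (0.58, edgeR adjusted p = 0.00144). Of 22 heat shock chaperones 1 fell (4.55%, against 1.84%), *Dnaja1* (−0.24), and it lost its call without replicate 4 (edgeR adjusted p = 0.0509) and without any 1 of 13 libraries. In this list 5 members were lower and 1 higher at an unadjusted p under 0.05, and DESeq2 called 4 lower and 1 higher. Of 36 lysosomal and endosomal genes 1 fell (2.78%, against 1.84%), *Rab11a* (−0.31), which was not called without replicate 4 (edgeR adjusted p = 0.114), with the marker covariate, without the block or without any 1 of 11 libraries, while DESeq2 called 2 lower. By edgeR, 0 of 82 cytosolic ribosomal protein genes, 0 of 86 nuclear oxidative phosphorylation genes and 0 of 10 mitochondrial mRNAs were called. At an unadjusted p under 0.05 these lists had 3, 7 and 0 members, DESeq2 called 1, 1 and 0, and their medians were −0.05, −0.10 and −0.06.

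The called higher genes had longer 3′UTRs than the tested genes, as a description with no test. The median 3′UTR was 2744 nucleotides for 410 called higher genes, 1559 for 294 called lower genes and 1196 for all 13786 tested genes with a 3′UTR. The coding parts differed less, with medians of 1782, 1449 and 1407 nucleotides, and the median GC content of the transcript was 50.7, 49.2 and 50.2%. Genes were divided into 4 equal groups by 3′UTR length. In the group with the longest 3′UTRs 6.59% were called higher and 2.15% lower. In the group with the shortest the shares were 0.985% and 1.1%. The group with the longest 3′UTRs was also the more abundant, with a median of 40.9 CPM against 11.4 CPM, so the power to call was not equal. When transcript length and GC content were corrected in each library, 834 genes were called, 402 of them higher, and the medians were 2460 nucleotides for the higher and 1770 for the lower genes. The 31 higher genes that were called without the block as well and have a 3′UTR had a median of 4750 nucleotides.

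**Figure D5:**
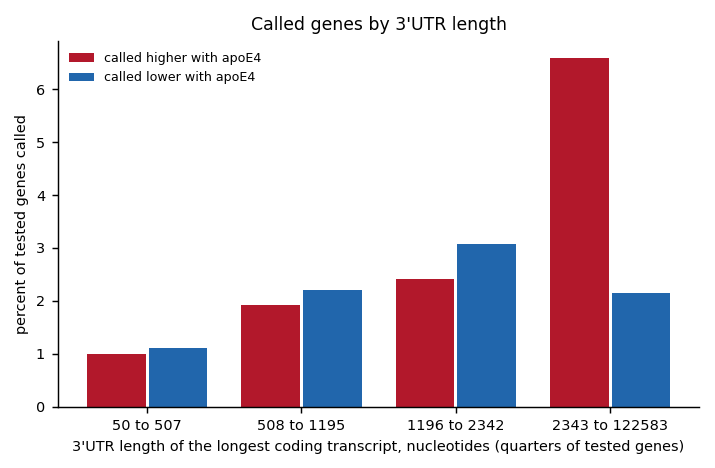
Percent of tested genes called higher (red) and lower (blue) with apoE4 in each of 4 equal groups by 3′UTR length, in nucleotides. The red bar rises from 0.985% in the shortest to 6.59% in the longest group, while the blue bar lies between 1.1 and 3.07%.

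A single tested feature was counted in every apoE4 library and in no other library of the series. *Ear-ps8*, an unprocessed pseudogene of the eosinophil ribonuclease family (chr14:43901685-43902038, minus strand), had 33, 26, 39 and 233 reads in apoE4 replicates 1 to 4 and 0 in all apoE2, apoE3 and control libraries. Against a floor of 3 counts over the 4 apoE2 libraries it was at least 133-fold higher with apoE4 (edgeR adjusted p = 0.00163, 0.217 without the replicate block). ApoE4 replicate 4 held most of the reads, and without it the bound was 50.9-fold, from 98 reads. It overlaps *AC154806.1* on the other strand over 34.5% of its exons. It was named after its values were seen.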

How the data were processed

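RNA of hippocampal neuron cultures was sequenced as rRNA-depleted total RNA (Ribo-Zero Gold, NovaSeq), with 4 cultures for each of apoE4, apoE2, apoE3 and control. The deposited files hold raw counts of reads per mouse gene, which the authors made with STAR and HTSeq on mm10. The annotation release and the strand setting are not given in the sources used here, and human *APOE* was not counted. Rows without a gene (38.4 to 73.7% of all counts in the 8 libraries) were left out. The libraries then held 15720376 to 34248172 counts, and a gene at 0 is not detected at this depth. Symbols were matched to the GENCODE M21 annotation (46467 of 48397). In R 4.3.3, edgeR 4.0.16 was fitted to all 16 libraries (TMM, filterByExpr with a minimum count of 10, total of 15 and proportion of 0.7) with the replicate number as a block, and apoE4 was tested against apoE2 with the quasi-likelihood test and Benjamini-Hochberg adjustment over 17038 genes. Genes with an adjusted p under 0.05 were called. Scripts were tested on simulated data. CPM use TMM library sizes.

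The replicate numbers come from the sample names, and p-values measure the spread between libraries that is left after the replicate number is fitted. Deviations from the group means correlated at 0.46, 0.82, 0.62 and 0.70 between the apoE4 and apoE2 libraries of numbers 1 to 4, against −0.66 to 0.53 between different numbers, and the common dispersion was 0.0178 with the block and 0.132 without it. The 38 gene lists and the lists' members were chosen with earlier results of these data known. Named genes were the 12 higher and 8 lower called genes with the smallest p among protein-coding genes changed at least 2-fold, in 1 direction in 4 of 4 pairs and with a mean of at least 1 CPM, up to 4 members of each list, the genes of the apoE receptors and stained proteins, and genes called with and without the block at 2-fold or above. Alternatives were the fit without the block, the 8 libraries alone, DESeq2 1.42.0 and its size factors, other filters, length and GC offsets, library sizes without features over 1% of counts, and each library left out in turn. Leaving out replicate 4 of every group and a covariate of summed marker levels were added after seeing the data. Mature miRNAs, promoters and 3′UTR lengths are of the RefSeq and GENCODE tables, and promoters were matched by symbol. Some listed genes are not reported here.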

Additional observations from a re-analysis of the deposited data

Results flagged for a closer look

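6 of the 120 groups of 4 values examined held a library far from the other 3, where chance alone gives about 1 in 20. *Elk4* was at 41.8 CPM in apoE2 replicate 3, against 26.6 to 29.2 CPM in the other apoE2 libraries, and *Ago2* was at 160.3 CPM in the same library, against 85.6 to 97.5 CPM, so both genes were nearer to their apoE4 levels there. *Mir7053* was at 0.485 CPM in apoE4 replicate 2, against 1.32 to 1.44 CPM in the other apoE4 libraries. *Hist1h4m* was at 0.282 CPM in apoE2 replicate 1, against 0.0383 to 0.0764 CPM, and *Gm22* was at 0.423 CPM in the same library, against 0.764 to 0.814 CPM. Microglia markers summed to 85.8 CPM in apoE4 replicate 4, against 27.3 to 34.0 CPM in the other apoE4 libraries, and this library also had the highest astrocyte and fibroblast marker levels. The part of these libraries in the results was examined by leaving each out in turn. For apoE4 replicate 4, the fits without replicate 4 in any group and with the marker covariate bear on it as well. No other test was made.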

How the results depend on the processing

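The number of called genes depended on the replicate block more than on any other choice tried. Without the replicate block 43 genes were called in place of 757, 39 higher and 4 lower, 221 met the criterion of the study in place of 358, and 12 list members and 8 of the 20 named genes were called in place of 97 and 20. With the 8 libraries alone 319 genes were called (219 higher, 100 lower) and 52 list members. DESeq2 called 1242 genes (692 higher, 550 lower). Without the filter on low counts 1499 were called (920 higher, 579 lower), 575 met the criterion and 195 list members were called, while at least 1 CPM in 8 libraries left 191 genes at the criterion. Without replicate 4 in any group 479 genes were called (264 higher) and 64 list members. With 1 library left out, the called genes numbered 366 to 940, the higher 260 to 538, the lower 105 to 402, those at the criterion 328 to 498, the list members 61 to 112 and the named genes 20 in every fit. Higher genes were 58.7% of the calls, 90.7% without the replicate block, 68.7% with the 8 libraries alone, 71.3% without apoE4 replicate 3 and 48.2% with length and GC offsets, so the balance of the directions depends on the processing. None of 136 called genes examined changed sign in the 26 alternatives, of those each tested, and 94 lost their call without the block, 50 with the 8 libraries alone, 48 with the marker covariate and 40 without replicate 4. The cause was not tested. Depth limits the low genes, since in libraries of 15720376 to 34248172 counts *Igf2bp1* rested on 0 to 4 reads in each apoE2 library.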

Other observations

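None of the genes below is named by the rule, and each was picked with its values known. The gene with the smallest p of all was *AI506816*, a processed transcript (chr5:23698296-23712667, minus strand), at 36.5, 13.8, 18.1 and 37.8 CPM with apoE4 and 6.41, 2.29, 3.29 and 7.4 CPM with apoE2 (log2 fold change 2.49, edgeR adjusted p = 8.55e-07). It was higher in 4 of 4 pairs without overlap. *Nptx1*, a neuronal pentraxin that gathers AMPA receptors at synapses, was at 180.1, 281, 488 and 79.4 CPM with apoE4 and 75.3, 118, 188 and 46.2 CPM with apoE2 (log2 fold change 1.17, edgeR adjusted p = 0.000246), higher in 4 of 4 pairs although the groups overlapped. *Smad3*, a transducer of activin and TGF-β signals, was at 65.4, 36.1, 60.8 and 63.4 CPM with apoE4 and 40.1, 18.4, 34.3 and 37 CPM with apoE2 (log2 fold change 0.82, edgeR adjusted p = 0.000246), and *Smad5*, which serves BMP receptors, had a log2 fold change of 0.82. *Inhba*, the activin subunit described above, rose in the same comparison. *Hif1an*, the asparagine hydroxylase that holds back HIF, was at 62.9, 47.4, 47.6 and 55.9 CPM with apoE4 and 25.9, 32.6, 31.7 and 30.6 CPM with apoE2 (log2 fold change 0.81, edgeR adjusted p = 0.000288) and was also called without the replicate block (adjusted p = 0.00335). *Cdh23*, a cadherin of hair cell tip links, was at 10.7, 5.67, 18.1 and 5.04 CPM with apoE4 and 3.81, 2.06, 3.26 and 1.42 CPM with apoE2 (log2 fold change 1.83, edgeR adjusted p = 0.000417). The ubiquitin ligase *Trim56* (1.81) and the homeobox factor *Zfhx3* (1.92) rose as well. *Dlat*, the acetyltransferase subunit of pyruvate dehydrogenase, was at 124, 158, 150.4 and 109 CPM with apoE4 and 212, 258, 246 and 178 CPM with apoE2 (log2 fold change −0.73, edgeR adjusted p = 0.000184), lower without overlap.

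The low-count filter left out 3 further features that were counted in all 4 apoE4 libraries and in no apoE2 library, and no feature showed the opposite pattern. *Usp44*, a deubiquitinase of the spindle checkpoint, had 22, 7, 19 and 45 reads with apoE4, 0 with apoE2, 2, 0, 1 and 0 with apoE3 and 0, 0, 0 and 1 in the control, and was at least 37.5-fold higher with apoE4 against a floor of 3 counts over the 4 apoE2 libraries (24.9-fold without apoE4 replicate 4). The homeobox gene *Hoxa3* had 9, 4, 3 and 4 reads with apoE4 and 0 with apoE2 (at least 8.05-fold, or 5.33-fold without apoE4 replicate 1), and *Arl14epl* had 2, 1, 1 and 11 and 0 (at least 6.04-fold, or 2.08-fold from 4 reads without apoE4 replicate 4). These features were not tested. Features were searched among those with at least 15 reads over the 4 libraries.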
